A study of Mus musculus with 686 samples.

Results

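The brain-enriched snoRNAs were the 50 snoRNAs, of 1545 measured, whose mean level in brain stood furthest above the highest mean of any other tissue in the ground controls of a mouse spaceflight study. Levels were snoRNA counts scaled to 1000000 snoRNA counts of the library (CPM), the ratio was taken with 1 CPM added to both means, and it rested on 234 of the 686 libraries. All 50 rows lay on the minus strand of chromosome 7 in chr7:59353283-59617690 (GRCm38), inside the long host gene Snhg14, and none overlapped an annotated Snhg14 exon. They held only 12 distinct sequences, and 33 of the 50 rows were the same 79-base RNA. By sequence and place all were copies of SNORD115 (also MBII-52), which the deposited table lists under the placeholder names Gm25098, Gm24418 and the like. The members were chosen by these measured levels, so the brain enrichment in those 234 libraries is a description; the other 452 libraries did not enter it.

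The mice were 83 BALB/cAnNTac females of about 3 or 8 months, and their small RNAs were read in 13 tissues, not all of them from every mouse. Flight mice (FL) lived on the International Space Station, habitat ground controls (HGC) lived on Earth in flight-matched cages, temperature, humidity and carbon dioxide, and vivarium ground controls (VGC) lived in standard cages. Mice of the TERM collection were killed 22 to 24 days after launch, in orbit or on Earth, and their tissues, apart from the spleen, which was taken fresh, were dissected after the carcass had been frozen and thawed, whereas FL mice of LAR returned alive after 39.5 days and were collected 2 to 4 days after splashdown, and their controls, which stayed on Earth, were collected on a matched schedule. Brain gave 25 libraries of whole hemi-brains: 4 FL, 4 HGC and 4 VGC of LAR, all of 3 months, and 4 FL, 5 HGC and 4 VGC of TERM, of which 8 were of 3 months and 5 of 8 months. The other 12 tissues gave 661 libraries: heart, lung, liver, kidney, spleen, thymus, pancreas, diaphragm, and brown (BAT), gonadal (GAT), mesenteric (MAT) and subcutaneous (SCAT) adipose tissue.

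SNORD115 is a C/D box snoRNA, a class of small nucleolar RNA named after 2 short sequence boxes near its ends, on which the proteins of the particle assemble; most such RNAs pair with another RNA and so guide its methylation. Its many copies stand in tandem in introns of a long transcript of the imprinted Prader-Willi and Angelman locus, are expressed from the paternal chromosome and are known from neurons. Unlike most snoRNAs it has no known ribosomal RNA target, and it is known for a stretch complementary to the messenger RNA of Htr2c, the serotonin receptor 2C, over an exon in which that message is edited and alternatively spliced.

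The common sequence is shown first because 33 rows share it and the others are described against it. Capitals mark the 18-base stretch at positions 53 to 70, counted from 1 at the 5′ end, that is complementary to Htr2c. Sequences came from GENCODE M21 (GRCm38), matched by versioned transcript identifier.
Gm25098: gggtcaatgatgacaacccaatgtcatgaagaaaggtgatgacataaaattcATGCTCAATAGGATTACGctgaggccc
Its reverse complement, CGTAATCCTATTGAGCAT, was found in 1 gene of that annotation, Htr2c, at chrX:147169689-147169706 on the plus strand. The site lay within coding exon 5 or 6 of 2 of the 7 annotated Htr2c transcripts. An exact copy of the stretch was present in 37 of the 50 member rows (5 of the 12 sequences), in 105 of all 136 SNORD115 rows of the table, and in no SNORD116 row. A C box (ATGATGA, starting within the first 20 bases) together with a D box (CTGA, within the last 14) was found in 49 of the 50 members, against 251 or 16.7% of the 1506 snoRNAs for which a sequence was found, all read on the RNA's own strand. The exception was Gm24983, a shorter copy of 69 bases.

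Members that differ from Gm25098 are shown next, since their counts divided by the place of the difference. Capitals mark the substituted bases, and each substitution is also written with the base of Gm25098 first and the base of the copy last. In order the substitutions were G2T in Gm22255; T4C, C19A, G35T and C77T in Gm25156; G23A and A65T in Gm24495; G36T, G70A and G76C in Gm24418; G1A, A65T and C69T in Gm23254; C52A in Gm22252; and C78A with C79A in Gm22834.
Gm22255: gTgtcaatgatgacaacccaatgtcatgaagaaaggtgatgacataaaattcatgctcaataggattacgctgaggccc
Gm25156: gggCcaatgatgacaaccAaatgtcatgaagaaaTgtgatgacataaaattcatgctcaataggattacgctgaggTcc
Gm24495: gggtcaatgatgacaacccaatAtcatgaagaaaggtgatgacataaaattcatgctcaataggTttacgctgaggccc
Gm24418: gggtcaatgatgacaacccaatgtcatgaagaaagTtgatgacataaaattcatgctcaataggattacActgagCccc
Gm23254: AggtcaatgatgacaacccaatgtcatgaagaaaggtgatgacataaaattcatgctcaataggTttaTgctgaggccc
Gm22252: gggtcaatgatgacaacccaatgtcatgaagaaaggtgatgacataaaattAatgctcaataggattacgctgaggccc
Gm22834: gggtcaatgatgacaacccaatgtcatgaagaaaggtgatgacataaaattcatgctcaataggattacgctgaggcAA
The remaining 79-base members differed at the last base of the stretch: Gm24100 by G70C, Gm24137 and Gm22391 by G70C and C77A, and Gm24862, Gm23310 and Gm25461 by G70A.

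The whole SNORD115 cluster held 136 rows (56 distinct sequences, at least 75% identical to Gm25098) in chr7:59344073-59619095, with a median of 1871 bases between the starts of neighbouring copies. The snoRNA counts are whole numbers, and how a read that maps to several copies was counted is not given in the sources used here. If it was counted at each copy, a share over all rows repeats it. Rows with the same sequence carried the same count in every library, so a count cannot be given to 1 copy. The 50 members therefore hold at most 12 separate measurements, which may share reads. They took 61.5% ± 8.30 (SD, n = 25) of the snoRNA counts of a brain library, and 31.0% ± 8.22 when rows with identical counts were counted once. Gm25098 alone took 1.46% ± 0.197 per row, or 4.50% ± 1.18 when identical rows were counted once. Other SNORD115 rows took 11.2% ± 2.57 of brain snoRNA counts, and the 70 rows of SNORD116, the neighbouring snoRNA cluster in Snhg14 (chr7:59673461-59904848), took 6.83% ± 1.88.

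The ratio that chose the members ran from 24.0 to 25.7 with a median of 24.5. The first place was held by Gm24495, with a mean of 333 CPM in brain against 12.0 in BAT. It was followed by Gm24983, Gm25156, Gm22255, Gm22834, Gm24137, Gm22391, Gm24100, Gm24862 and Gm23310. Gm25098 averaged 14679 CPM in brain against 599 in BAT. Just inside the limit, at ranks 48 to 50, Gm24639, Gm23076 and Gm25077 had 1584 against 64.9 CPM and a ratio of 24.0. Just outside it, Gm25988, Gm23471 and Gm23449, also SNORD115 copies, had 2409 against 101 CPM and a ratio of 23.5. The limit thus fell within a run of SNORD115 copies and marked no change of family.

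In the 25 brain libraries the counts of the copies split by whether their first substitution lay before position 41 or after position 50. Among sequences of 79 bases, 5 that matched Gm25098 as far as position 50 had 85.8% to 94.3% of its count, with a median of 92.3%. The 19 with a first substitution at positions 21 to 40 had 1.06% to 27.6%, with a median of 8.54%. The 27 with a first substitution at positions 1 to 20 had 0.102% to 87.2%, with a median of 6.00%. No sequence had its first substitution at positions 41 to 50.

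The same held for copies with 1 substitution alone. A single change at positions 51 to 79 left 85.8% to 92.5% of the count of Gm25098 (3 sequences), whereas a single change at positions 1 to 20 left 8.28% to 19.9% (6 sequences) and at 21 to 40 left 8.54% to 21.3% (7 sequences). Gm22255, which differs by G2T, had 19.9% ± 3.29 (SD, n = 25 libraries) of the count, whereas Gm22252, which differs by C52A, had 85.8% ± 2.92. Gm23254 was the exception to this split by position: it carries G1A and had 87.2% ± 2.97. Gm22834 had 94.3% ± 2.22, Gm24418 had 11.0% ± 2.17, Gm25156 had 4.13% ± 0.940 and Gm24495 had 2.27% ± 0.223. How much of this came from short reads that do not reach the differing base, and how much from the abundance of each copy, was not tested.

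**Figure D1:**
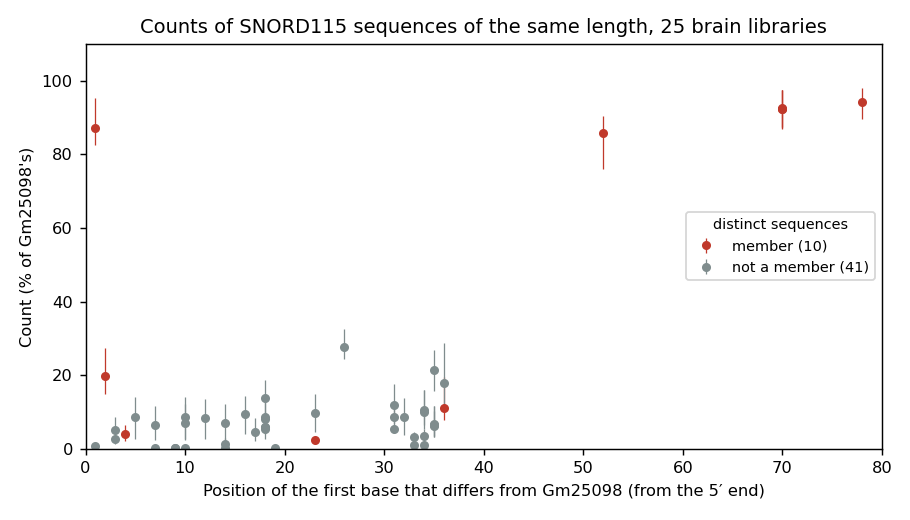
Count of each distinct 79-base SNORD115 sequence as a percentage of the count of Gm25098 (y axis) against the position of the first base that differs from it, from the 5′ end (x axis); points are means and bars the lowest and highest of 25 brain libraries, for 10 member and 41 other sequences. Sequences that first differ after position 50 sit at 85.8% to 94.3%, and those that differ earlier sit at 27.6% or below, with Gm23254 at position 1 the exception.

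Before the comparison of tissues, the labels were checked against miRNAs, because some library pools stood apart. In 166 of the 686 libraries the miRNA profile was closest to that of another tissue than the label, and in 11 of the 44 library pools this held for more than 1 in 3 libraries. None of the 25 brain libraries was mismatched, but 2 of them, VGC-LAR mouse 5 and FL-TERM mouse 17, were sequenced in those pools. The sum of 4 neuronal miRNAs (miR-124-3p, miR-9-5p, miR-128-3p and miR-137-3p) was 81726 to 306175 CPM of the miRNA counts in brain. Total snoRNA counts ran from 176992 to 66853759 per library (median 7049352) and from 2638986 to 66853759 in brain (median 30929914). Whether reads carried molecular identifiers is not given in the sources used here, so a limit from a count covers counting error only.

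Gm25098 was the highest in brain, at 8853 to 17859 CPM with a median of 15203. The medians of the other tissues were 74.2 in heart, 60.1 in pancreas, 55.9 in BAT, 22.3 in thymus, 21.1 in diaphragm, 19.2 in MAT, 17.5 in liver, 16.2 in kidney, 13.3 in GAT, 12.4 in lung, 8.67 in SCAT and 4.05 in spleen. The ranges of these 12 tissues all overlapped, so that neighbours in this order were not apart beyond their spread, whereas all but 1 of the 661 libraries of other tissues lay below the lowest brain library. The count itself was 44736 to 1045518 in brain and had a median of 147 elsewhere. It was 0 in 1 library, MAT of HGC-TERM mouse 14, where a count of 0 allows a level of up to 16.9 CPM.

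**Figure D2:**
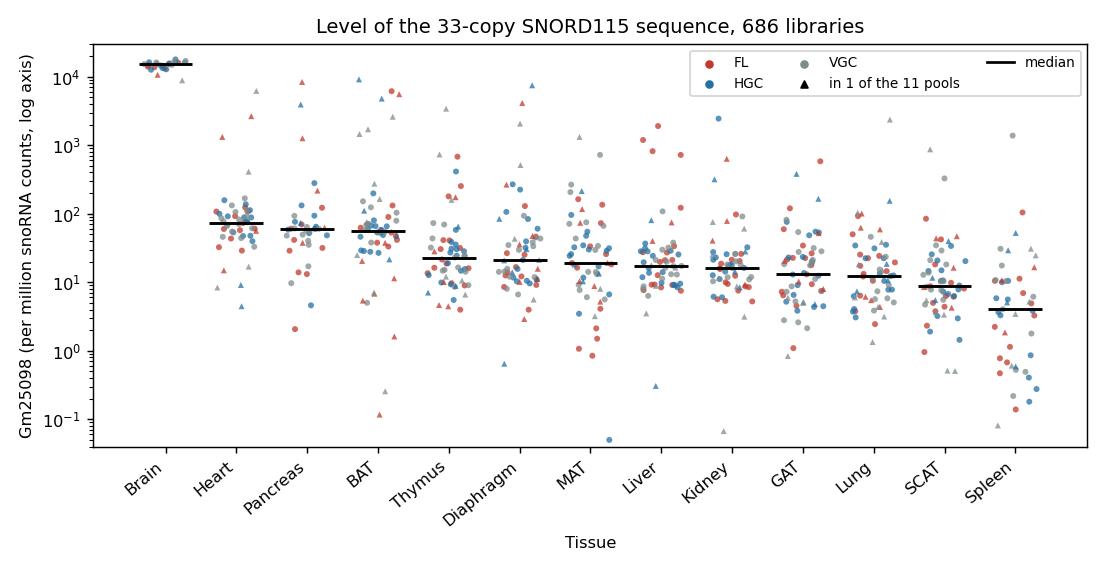
Gm25098 in snoRNA CPM (y axis, log scale) in each of the 686 libraries by tissue (x axis), coloured by arm, with triangles for the 11 pools whose libraries often stood closest to another tissue and bars at the medians; the 1 library at 0 is drawn at the foot of the axis. Brain sits between 8853 and 17859, and the medians of the other tissues lie between 4.05 and 74.2, with a tail of single libraries above 1000.

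In the libraries that the rule had not used, Gm25098 was again highest in brain. In TERM the 13 brain libraries had 10657 to 16952 CPM (median 15203), and the highest medians elsewhere were 60.2 in heart (n = 28), 60.1 in pancreas (n = 11) and 59.5 in BAT (n = 30). In FL of LAR the brain libraries had 14002, 13740, 15953 and 15258 CPM, and the next median was 99.8 in heart (n = 6). No other library of these 2 sets reached the lowest brain value of its set.

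All 50 members, 12 sequences of 12, were called higher in brain than in the mean of the other 12 tissues in TERM by edgeR's quasi-likelihood test with Benjamini-Hochberg adjustment, against 26.2% of the 1063 snoRNAs tested. Their log2 differences were 9.30 to 9.75 with a median of 9.70, while the median of all snoRNAs tested was −0.67. In FL of LAR all 50 were again called higher, against 26.3% of 989 tested, with log2 differences of 10.29 to 10.57, a median of 10.44, and −0.80 for all snoRNAs. For Gm25098 the difference was 9.70 (SE 0.45, edgeR adjusted p = 5.49e-65) in TERM and 10.44 (SE 0.46, edgeR adjusted p = 1.25e-41) in FL of LAR. The size rests on the scaling: scaled to snoRNA column sums alone, of which the members are a large share in brain, the same differences were 7.38 and 8.43, and the median of all snoRNAs was −2.22 and −2.34. Tissues of 1 mouse share the animal, and with the animal as a block the FL-LAR difference was 10.68; the 13 TERM brains came from mice that gave no other tissue.

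The members did not lead the list by the size of this difference. They stood at places 30 to 126 of 1063 in TERM and 27 to 122 of 989 in FL of LAR, and the first place was held in both by Gm25934, a SNORD115 copy that is no member, at 9.92 and 10.66. The other 86 SNORD115 rows were also all called higher in brain, with medians of 9.70 and 10.54. Which SNORD115 copies entered the list thus followed small differences of the ratio.

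Other snoRNAs of the imprinted loci were called higher in brain where they could be tested. All 70 SNORD116 rows, from the snoRNA cluster whose paternal loss is tied to the Prader-Willi syndrome, were called higher in both sets, with median log2 differences of 9.07 and 9.18. By the rule the 70 had ratios of 3.76 to 18.1. Snord64 and Snord107, the other snoRNAs of that locus found, were both called higher in both sets, with medians of 3.87 and 3.93. By the rule, however, Snord64 and Snord107 had a median ratio of only 1.21 and ranks of 235 and 241. Their brain means thus stood little above the highest mean of another tissue. Of the 23 snoRNAs of the imprinted Dlk1-Dio3 cluster on chromosome 12, 15 passed the filter on low counts and all 15 were called higher, with medians of 5.31 and 5.30; by the rule the 23 had ratios of 0.973 to 8.91. A filtered count of this kind favours genes that are high in some tissue. Snora35, which lies in an intron of Htr2c, was called higher at 7.55 and 9.18 but had a ratio of only 1.86 and rank 229 by the rule. Of the 18 rows of snoRNAs for ribosomal RNA processing, such as U3 and U8, none was called higher; 18 in TERM and 10 in FL of LAR were called lower, against 43.7% and 25.7% of all snoRNAs tested, with medians of −0.77 and −0.92 beside −0.67 and −0.80 for all snoRNAs. That list was not refitted under the other scalings.

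Outside brain the SNORD115 level was high in a few libraries. Of the 661 libraries of other tissues 23 exceeded 1000 CPM of Gm25098, and 1, BAT of HGC-LAR mouse 12 with 9127, exceeded the lowest brain library. The next were pancreas of FL-LAR mouse 3 with 8378, diaphragm of HGC-TERM mouse 3 with 7489, heart of VGC-LAR mouse 13 with 6200 and BAT of FL-TERM mouse 4 with 6140. Of the 23, 18 were in the 11 pools, all of them in pools 20 to 22, and 20 were on plate 4. The miRNA profile of 11 of the 23 was closest to brain.

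Neuronal miRNAs moved with these high levels. Their sum was 3539 to 91625 CPM of the miRNA counts (median 13252) in the 23 libraries and 22.7 to 6217 (median 237) in the other 638, of which 8 exceeded 3539. The part that neural tissue, or RNA carried between libraries, had in these values was not tested. The libraries weigh on the ratio of the rule: without the 3 ground-control LAR libraries closest to brain the ratio of Gm25098 was 54.1 instead of 24.5, with pancreas next at 271 CPM, and without the 11 pools it was 116, with spleen next at 133. Of the 50 members 45 and 48 kept a place among the first 50, and all of the first 50 were SNORD115 in each case. In the tests, the log2 difference of Gm25098 in TERM was 10.14 without the libraries with a brain profile and 10.55 without the pools, and in FL of LAR 10.76 and 11.01, with all 50 members called each time.

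**Figure D3:**
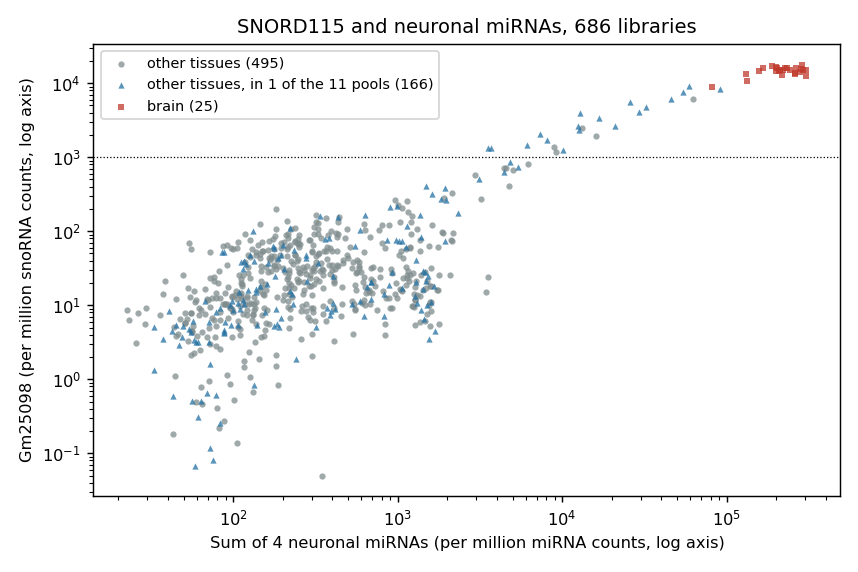
Gm25098 (y axis, snoRNA CPM) against the sum of 4 neuronal miRNAs (x axis, CPM of the miRNA counts), both on log scales, in 25 brain libraries, 495 libraries of other tissues and 166 of other tissues in the 11 pools; the dotted line marks 1000 CPM. The 23 libraries of other tissues above the line all have a neuronal sum of 3539 or more, and brain stands at the upper right with 81726 or more.

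Within brain, the arms of LAR were close together. In FL, mice 1, 5, 13 and 17 had 14002, 15258, 13740 and 15953 CPM of Gm25098. In HGC they had 12635, 14521, 17859 and 16233. In VGC they had 16134, 8853, 14867 and 16333. The ranges of the arms overlapped, and the low value of VGC mouse 5 was the lowest of all brain libraries; that library lies in 1 of the 11 pools, had muscle miRNAs (miR-1a-3p, miR-133a-3p and miR-206-3p) at 46930 CPM against 1593 to 27293 in the other brain libraries, and the lowest neuronal sum, 81726. In bulk tissue, fewer neurons and less SNORD115 per neuron cannot be told apart.

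None of the 50 members was called between the LAR arms by edgeR, and neither was any other snoRNA (0% of 662 in each of FL against HGC, FL against VGC and HGC against VGC). At an unadjusted p under 0.05 there were 12, 45 and 34 snoRNAs in these comparisons. For Gm25098 the log2 difference was −0.20 (SE 0.43, edgeR adjusted p = 0.996) for FL minus HGC, −0.03 (SE 0.43, edgeR adjusted p = 0.994) for FL minus VGC, whose sign turns under other scalings (0.07 with column sums), and 0.17 (SE 0.43, edgeR adjusted p = 0.995) for HGC minus VGC. With 1 library left out, FL minus HGC ran from −0.52 to −0.0034, HGC minus VGC from 0.017 to 0.48 and FL minus VGC from −0.30, without VGC mouse 5, to 0.19, without VGC mouse 1. A standard error of this size leaves room for a difference of either direction. HGC and VGC of LAR were among the libraries that chose the members for a high level in brain, which favours a lower value in FL.

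The spread between mice was wider for some copies. The widest difference between LAR arms was that of Gm25156: FL mice had 591, 690, 652 and 658 CPM, HGC mice 813, 567, 762 and 621, and VGC mice 425, 376, 568 and 476. The FL values lay above all VGC values, but the log2 difference of 0.43 (SE 0.45) had an edgeR adjusted p of 0.994, and that of HGC minus VGC was 0.63 (SE 0.45, edgeR adjusted p = 0.995). Gm24418 was 2450 CPM in HGC mouse 1 and 1467 to 1521 in the other HGC mice.

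In TERM, Gm25098 had its lowest mean in FL. The FL values were 14398 and 13172 CPM at 3 months (mice 7 and 8) and 10657 and 14834 at 8 months (mice 17 and 18). HGC had 15639, 15902 and 16104 at 3 months (mice 7, 8 and 9) and 12818 and 13369 at 8 months (mice 17 and 18). VGC had 15264, 16952 and 15234 at 3 months (mice 7, 8 and 9) and 15203 at 8 months (mouse 18). All FL values were below all VGC values, while FL and HGC overlapped. As a share of snoRNA counts the members summed to 55.6% ± 7.73 in FL (n = 4), 61.9% ± 6.61 in HGC (n = 5) and 65.8% ± 3.87 in VGC (n = 4). With identical rows counted once, the share was 15.0% to 30.7% in FL, 22.3% to 37.4% in HGC and 32.8% to 41.1% in VGC.

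No member was called between TERM arms by edgeR, against 0.742% of 674 snoRNAs for FL against VGC and for HGC against VGC, and 0% for FL against HGC. At an unadjusted p under 0.05 there were 104, 23 and 3 snoRNAs in these comparisons. The arm fits of TERM held no age term, and 2 of the 4 FL, 2 of the 5 HGC and 1 of the 4 VGC brains were of 8 months. For FL minus VGC the log2 difference of Gm25098 was −0.63 (SE 0.28, unadjusted p = 0.0354, edgeR adjusted p = 0.274), and 7 of the 12 sequences had an unadjusted p under 0.05. The difference was −0.24 with column sums and −0.17 with 7 classes of small RNA, and the sign turns to 0.05 when libraries are scaled to their miRNA counts. With identical rows kept once it was −0.86, and 8 of the 12 sequences had an unadjusted p under 0.05, with no member called. In the main fit all snoRNAs had a median of 0.09 and SNORD116 one of −0.22. DESeq2, on the same counts, called 42 of the 50 members, which are 7 of the 12 sequences, lower in FL (Gm25098 −0.72, adjusted p = 0.0466). In all it called 44 snoRNAs lower, 6.53% of those tested, against 5 by edgeR. FL minus HGC was −0.44 (SE 0.27, edgeR adjusted p = 0.876), or 0.05 under miRNA scaling, and HGC minus VGC was −0.19 (SE 0.27, edgeR adjusted p = 0.987), or 0.10 when scaled to 7 classes of small RNA and −0.33 to −0.071 with 1 library left out (HGC mouse 8 and HGC mouse 18).

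Of the 4 lowest TERM values of Gm25098, 2 came with markers of other tissues. FL mouse 17, the lowest, lies in 1 of the 11 pools and had muscle miRNAs at 27293, the liver miRNA miR-122-5p at 3765 and pancreas miRNAs (miR-216a-5p and miR-217-5p) at 1345 CPM. HGC mouse 18, in pool 23, had miR-122-5p at 28252 and muscle miRNAs at 13796. Both were on plate 4, as was VGC-LAR mouse 5 and no other brain library. Of the 23 libraries of other tissues above 1000 CPM of Gm25098, 20 were on this plate. The other low libraries, HGC mouse 17 and FL mouse 8, had muscle miRNAs at 2537 and 1593 and miR-122-5p at 38.8 and 71.2, and VGC mouse 7 had miR-122-5p at 18053 and a level like that of the other VGC mice. Their part in the difference was not tested. Without FL mouse 17 the difference of FL minus VGC was −0.48 and that of FL minus HGC −0.29, and the remaining 3 FL values still lay below those of VGC. Without HGC mouse 18 FL minus HGC was −0.56 (edgeR adjusted p = 0.535). There 7 of the 12 sequences had an unadjusted p under 0.05, and no member was called. Carcasses were thawed before dissection in all 3 arms of TERM, but those of FL had been frozen in orbit, where they floated in air and, per the protocol, were not snap frozen, so that flight and the manner of freezing cannot be told apart. Ages were uneven between the arms as well, and the part of age in these differences was not tested.

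**Figure D4:**
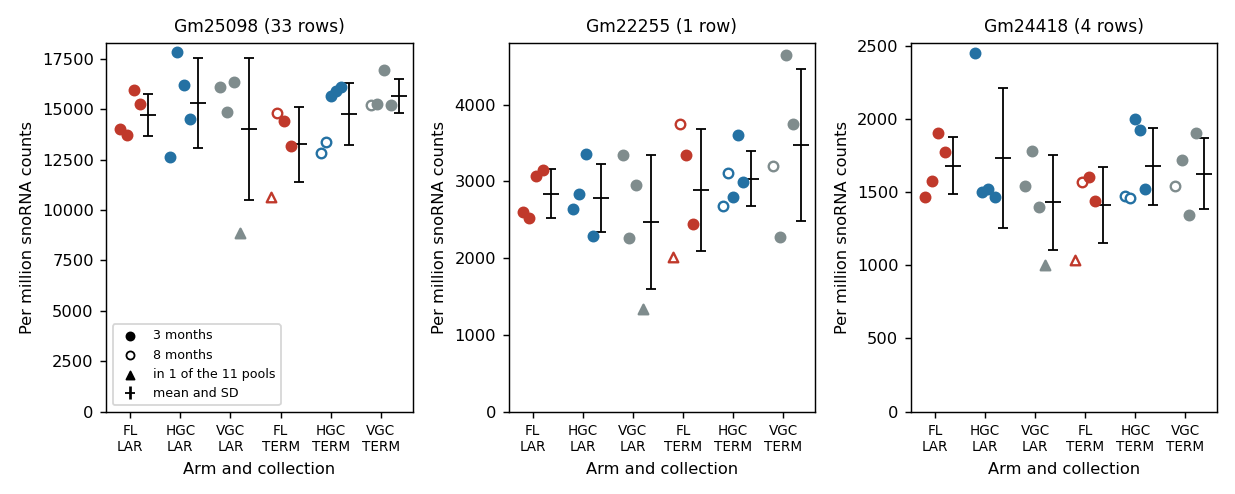
Levels (y axis, snoRNA CPM, from 0) of Gm25098, Gm22255 and Gm24418 in the 25 brain libraries by arm and collection (x axis), with filled points for 3 months, open points for 8 months, triangles for the 11 pools, and the mean and SD beside them. For Gm25098 the 4 FL-TERM values (10657 to 14834) lie below the 4 VGC-TERM values (15203 to 16952), and both libraries of the pools, at 10657 and 8853, are the lowest of their groups.

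Other members had differences of the same sign in TERM. Gm22255 was 2015 to 3743 CPM in FL, 2674 to 3607 in HGC and 2281 to 4641 in VGC, and its FL minus VGC log2 difference was −0.66 (SE 0.35, edgeR adjusted p = 0.350). Gm24418 was 1038 to 1606 in FL, 1464 to 2002 in HGC and 1343 to 1907 in VGC, with −0.58 (SE 0.33, edgeR adjusted p = 0.359). For both the arms overlapped. Over the 50 members the differences ran from −0.67 to −0.33 in this comparison, and from −0.27 to 0.051 with column sums, with Gm25156 the highest in the first case; since they are 12 measurements of nearly the same RNA, which may share reads, their common sign is not 50 observations.

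Age could be compared in TERM alone. Gm25098 was 10657 to 15203 CPM at 8 months (median 13369, n = 5) and 13172 to 16952 at 3 months (median 15451, n = 8), and the ages overlapped. The members summed to 56.1% ± 7.62 of snoRNA counts at 8 months and to 64.3% ± 4.88 at 3 months. With identical rows counted once, the share was 15.0% to 32.8% at 8 months and 24.3% to 41.1% at 3 months. No member was called, against 0% of 674 snoRNAs (105 at an unadjusted p under 0.05): for Gm25098 the log2 difference, with arm in the model, was −0.43 (SE 0.20, unadjusted p = 0.0453, edgeR adjusted p = 0.305), and 7 of the 12 sequences had an unadjusted p under 0.05. The difference was −0.17 with column sums, −0.56 with 7 classes of small RNA and −0.84 with miRNA counts. Both libraries with the most foreign miRNAs in TERM, FL mouse 17 and HGC mouse 18, were of 8 months. Leaving out FL mouse 18 brought 42 members, which are 7 sequences, past the threshold (Gm25098 −0.59, edgeR adjusted p = 0.0403). They were all of the snoRNAs called lower in that fit (6.28% of 669), beside 14 called higher. Leaving out any of the other 12 libraries brought no member past it. SNORD116 had a median of −0.39 and all snoRNAs one of 0.18.

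LAR and TERM were compared in the FL brains. The 4 FL-LAR values of Gm25098 (13740 to 15953 CPM) overlapped the 4 of FL-TERM (10657 to 14834). The log2 difference of LAR minus TERM was 0.35 (SE 0.37, edgeR adjusted p = 0.987), or −0.02 under miRNA scaling and 0.64 with 7 classes of small RNA, and no member was called, against 0% of 690 snoRNAs (33 at an unadjusted p under 0.05). With 1 library left out it ran from 0.19 (without FL-TERM mouse 17) to 0.58 (without FL-LAR mouse 1). With the brains of 3 months alone (2 in FL-TERM) it was 0.43 (SE 0.54, edgeR adjusted p = 0.924). Time in orbit, return to Earth and freezing of the carcass cannot be told apart here. The difference between arms was itself compared between the collections: for Gm25098 the FL minus VGC difference was 0.46 (SE 0.52, edgeR adjusted p = 0.701) higher in LAR than in TERM, and no member sequence passed the threshold for this, against 0.58% of 690 snoRNAs, or for FL minus HGC (0.00, SE 0.51), against 0%.

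**Figure D5:**
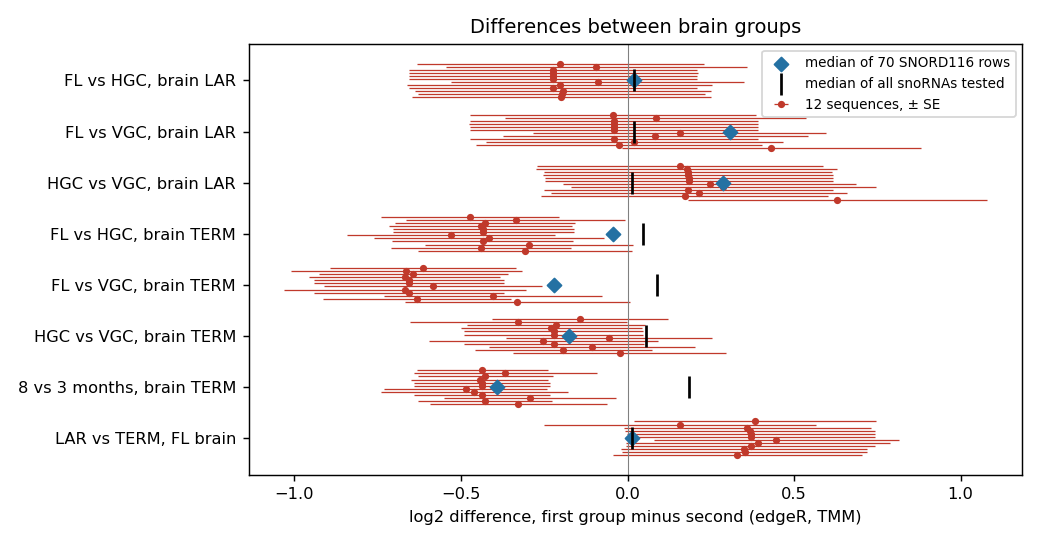
Log2 differences between brain groups (x axis, first group minus second) from edgeR for the 12 member sequences (red points with SE), the median of 70 SNORD116 rows (blue diamond) and the median of all snoRNAs tested (black bar), in 8 comparisons (y axis). The FL comparisons of TERM and the comparison of ages hold the lowest member values, down to −0.67, and no member passed the adjusted threshold in any.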

How the data were processed

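Members and gene lists were chosen with earlier results of these data known. Per the study's methods, the authors mapped reads to GRCm39 with miRMaster 2.0 and miRBase 22.1; the deposited values are raw whole-number read counts per snoRNA (1545 rows), and for miRNAs the authors deposited counts that need not be whole, taken as estimated counts; no source says how they were split. Blank cells (46.4% of the snoRNA table) were read as 0. Libraries were amplified by PCR. Groups came from the labels. Counts were tested with edgeR 4.0.16 (TMM factors, quasi-likelihood, R 4.3.3), over snoRNAs with at least 5 reads in at least 10% of a group, with Benjamini-Hochberg adjustment over all tested and a threshold of 0.05; tissue fits held tissue and arm, brain fits the arm, and age where compared. DESeq2 1.42.0, other scalings, filters, left-out libraries and blocks were alternatives. The procedure was tested on simulated data. Replicates were different mice. Named members were the first 10 by ratio, the highest in brain, ranks 48 to 53 and 1 per distinct sequence. Sequences and coordinates are those of GENCODE M21 (GRCm38) for 1506 rows; coordinates were not converted. Mice that carry the same number in different arms are different animals: of 12 such pairs in LAR and 11 in TERM, 4 and 4 correlated above 0.1.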

Additional observations from a re-analysis of the deposited data

Results flagged for a closer look

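Among 72 sets of brain values, 1 for each of the 12 sequences in each group of arm and collection, 4 held a value that stood apart. The measure was Dixon's criterion for a single outlier, which chance meets in about 1 of 20 groups. The sequences are nearly alike, and whether they share reads was not tested. Gm24418 was 2450 CPM in HGC-LAR mouse 1, above the other 3 mice. Gm22252 was 7934 CPM in VGC-LAR mouse 5, below the others; the same library was lowest for Gm25098 and had the most muscle miRNA. Gm25098 was 16952 CPM in VGC-TERM mouse 8, above the others, in the brain library with the fewest snoRNA counts (2638986), and Gm22252 was 13819 in VGC-TERM mouse 7.

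In the other tissues, 41 of 71 groups of 4 to 10 libraries held a single high value of Gm25098 by the same criterion, and 31 of these 41 libraries belonged to the 11 pools.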

How the results depend on the processing

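Of 178 alternatives to the 10 comparisons, 176 gave the same count of members called; 3 of these, the exact Wilcoxon tests of 4 against 4 libraries, could hardly have made a call after adjustment and say nothing of stability. For FL against VGC in TERM, DESeq2 called 42 members, which are 7 sequences, instead of 0. Leaving out 1 library gave 0 to 42 for 8 against 3 months, the 42 (also 7 sequences) without FL-TERM mouse 18. The members summed to 31.0% of brain snoRNA counts when identical rows were kept once, and the ratio of Gm25098 was 54.1 or 116 without the libraries named in the report. The cause of these changes was not tested, apart from the fewer rows or libraries used.

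The sign of the Gm25098 log2 difference turned in 5 of the 10 comparisons, and its size moved with the scaling in others. FL minus VGC in LAR (−0.03) was 0.069 with column sums, 0.13 with 7 classes of small RNA, 0.14 with 5 classes, 0.23 with miRNA counts, 0.13 by the exact Wilcoxon rank-sum scaling and −0.30 to 0.19 with 1 library left out. FL minus HGC in TERM was 0.055, FL minus VGC in TERM 0.047 and LAR minus TERM −0.015 with miRNA counts, and HGC minus VGC in TERM was 0.10 and 0.11 with 7 and 5 classes. With identical rows kept once, FL minus VGC in TERM was −0.86, HGC minus VGC in TERM −0.40 and FL minus HGC in LAR −0.35. With mouse number as a replicate block, FL minus VGC in LAR was 0.083 and no member was called; the numbers share only a number, and the block changed no other call of a member. In brain against other tissues, calls split into 278 higher and 464 lower in TERM and 260 and 254 in FL of LAR, but 250 and 708, and 246 and 572, with column sums. Over all snoRNAs, the count called for FL against VGC in TERM was 5 with edgeR and 44 with DESeq2, and for LAR against TERM it was 0 in FL and 3 higher with 5 lower as a mean over the arms. Scaling to 7 classes was not run for the tissue comparisons, and the animal block could not be fitted in TERM. The lowest count of Gm25098 in a brain library was 44736, so counting error was small beside the spread between mice.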
